A study of Mus musculus with 2 samples.

Results

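The 10 genes described here serve the path of dietary lipid from the gut lumen into lipoproteins. They were measured in samples labelled as mouse jejunum, the part of the small intestine between duodenum and ileum, on a control diet and on a high-glucose diet. The genes were chosen by symbol and are Fabp2, Fabp6, Mogat2, Dgat2, Apob, Apoa1, Apoc2, Scarb1, Abca1 and Bco1. Each symbol matched 1 row of the authors' deposited table of their comparison of the diets, Bco1 under its older name Bcmo1. The members are thus 10 of the 1562 genes named there and 10 of its 1625 listed probe sets, while each array holds 22690 probe sets. All samples came from male C57BL/6J mice aged 10 weeks, which were 4 weeks old at the start, were acclimated for 2 weeks and then ate their diet for 4 weeks. The control group ate regular chow (AIN76) and the other group a high-glucose diet (HGD) with 20% glucose. There was 1 Affymetrix array of total RNA per diet, so each ratio below compares 1 array with 1 other, carries no replicate error and has no test. Their number limits the precision, and the sources used here do not say how many mice stand behind each.

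Enterocytes, the absorptive cells of the gut, take up fatty acids and monoacylglycerol from digested fat and rebuild them into triacylglycerol. They pack it with cholesterol around apolipoprotein B into chylomicrons, which leave through the lymph. Cholesterol and carotenoids enter through membrane receptors, and part of the cholesterol leaves the cell again onto apolipoprotein A-I as high-density lipoprotein (HDL). The liver handles its own lipoproteins with many of the same genes, among them Apob, Apoa1, Apoc2, Dgat2, Scarb1 and Abca1. Fabp2, in contrast, is known as a gene of the small intestine, Fabp6 of the ileum, and Mogat2, in mice, mainly of the small intestine.

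Every value comes from one of 2 sources. The first is the pair of array signals, linear intensities from MAS5, the Affymetrix software step that turns the probes of a set into 1 value. The median signal was 13.1 on the array of the control diet, called the control array, and 7.9 on that of the high-glucose diet, called the HGD array. Over the 11315 expressed probe sets, those at or above the median of mean log2 signal, the median log2 ratio of high-glucose over control was -0.97, a 1.96-fold lower level. A ratio measured from that array-wide shift is called the relative log2 ratio here. Signals under a floor of 2.9 were set to it before any ratio, and no ratio is given where both signals lay under it. The second source is the authors' deposited table, which gives a signal log ratio (SLR) of high-glucose against control in log2 units. How it was scaled and how its probe sets were selected is not stated in the sources used here.

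Upstream sequences of the members the results turn on are shown first, as reference for the genes discussed below. Of the 10 members, 7 matched an entry of the RefSeq promoter table (build GRCm38.p6), and Mogat2, Dgat2 and Scarb1 did not. The 4 printed are the 250 bases before the annotated start, 5' to 3' on the gene's strand, of the member with the highest relative log2 ratio (Fabp2, chr3:122894822-122895071, plus strand), of the apolipoprotein of chylomicrons (Apob, chr12:7977427-7977676, plus strand), of the member with the lowest relative log2 ratio (Abca1, chr4:53159896-53160145, minus strand) and of the member with the highest SLR (Bco1, chr8:117095615-117095864, plus strand). Capitals mark matches to the motifs named in the next paragraph.
Fabp2: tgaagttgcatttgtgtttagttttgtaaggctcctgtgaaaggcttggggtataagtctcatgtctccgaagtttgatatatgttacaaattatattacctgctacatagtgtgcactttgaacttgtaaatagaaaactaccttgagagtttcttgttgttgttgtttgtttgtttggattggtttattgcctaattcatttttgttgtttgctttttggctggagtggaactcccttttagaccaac
Apob: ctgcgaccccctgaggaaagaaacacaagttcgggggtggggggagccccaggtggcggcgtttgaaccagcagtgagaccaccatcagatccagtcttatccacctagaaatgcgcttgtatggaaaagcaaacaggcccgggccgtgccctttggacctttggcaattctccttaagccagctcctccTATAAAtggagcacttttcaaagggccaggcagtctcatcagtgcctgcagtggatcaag
Abca1: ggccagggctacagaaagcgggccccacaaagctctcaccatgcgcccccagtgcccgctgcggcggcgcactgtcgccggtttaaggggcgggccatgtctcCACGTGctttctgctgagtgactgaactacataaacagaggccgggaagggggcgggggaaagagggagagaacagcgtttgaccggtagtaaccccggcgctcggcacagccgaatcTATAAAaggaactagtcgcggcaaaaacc
Bco1: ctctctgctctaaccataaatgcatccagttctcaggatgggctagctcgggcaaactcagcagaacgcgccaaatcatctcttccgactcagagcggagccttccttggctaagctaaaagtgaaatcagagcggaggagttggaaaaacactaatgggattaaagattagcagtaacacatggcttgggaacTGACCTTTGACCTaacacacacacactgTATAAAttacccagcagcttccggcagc

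Each motif was searched on both strands of the 250 bases. The TATA box (TATAAA) was found in 4 of the 7 members, Fabp6, Apob, Abca1 and Bco1, and in 12.4% of 32841 RefSeq promoters. In Abca1 it lay at bases -29 to -24 from the start, in Fabp6 on the opposite strand at the same place, in Bco1 at -28 to -23, and in Apob at -60 to -55. The nuclear receptor half-site (AGGTCA) was found in Apoc2 and Bco1, and in 14.0% of all promoters. Bco1 held a pair of them, at -56 to -51 and -49 to -44 on the opposite strand, separated by a single base. Such a direct repeat of half-sites with 1 base between them is called DR1, and its match overlaps both half-sites. DR1 was added to the search after the pair had been seen, and occurred in 11 of the 32841 promoters (0.0335%). The E-box (CACGTG) was found in Abca1 alone and in 6.02% of all promoters, and the HNF1 half-site (GTTAAT) in Apoc2 alone and in 6.43%. No match (0 of 7) was found for the HNF4 site (CAAAGTCCA), present in 0.384% of all promoters, or the GATA site (AGATAA), present in 9.99%. The GC content was 35.6% in Fabp2, 48.0% in Bco1, 55.2% in Apob and 61.6% in Abca1, around a median of 52.4% over all promoters. Letters in a 250-base window are a description and show no binding.

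Of the 10 members, 8 counted as expressed (68.3% of all listed probe sets), and beyond the array-wide shift they ran in both directions. Fabp2, Apoa1, Apoc2, Bco1 and Apob lay above the shift, and Dgat2, Scarb1 and Abca1 below it, over a range from 1.26 down to -0.65. Only Fabp2 was past 2-fold, which is 1 of 8 higher and 0 of 8 lower. Over all expressed probe sets, 4.92% passed 2-fold on the higher side of the shift and 4.97% on the lower side. At 1.5-fold, Fabp2 and Apoa1 were higher (all expressed probe sets, 14.7%) and Abca1 lower (14.3%). The 5 of 8 above the shift stood against 50% of all expressed probe sets, which lie on either side of the shift by its definition, and the members' median was 0.30. As deposited, with the shift left in, 7 of the 8 were dimmer on the HGD array and Fabp2 was brighter, where 5.28% of all expressed probe sets were higher. Fewer cells of a type and less RNA per cell cannot be told apart in such bulk tissue.

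**Figure D1:**
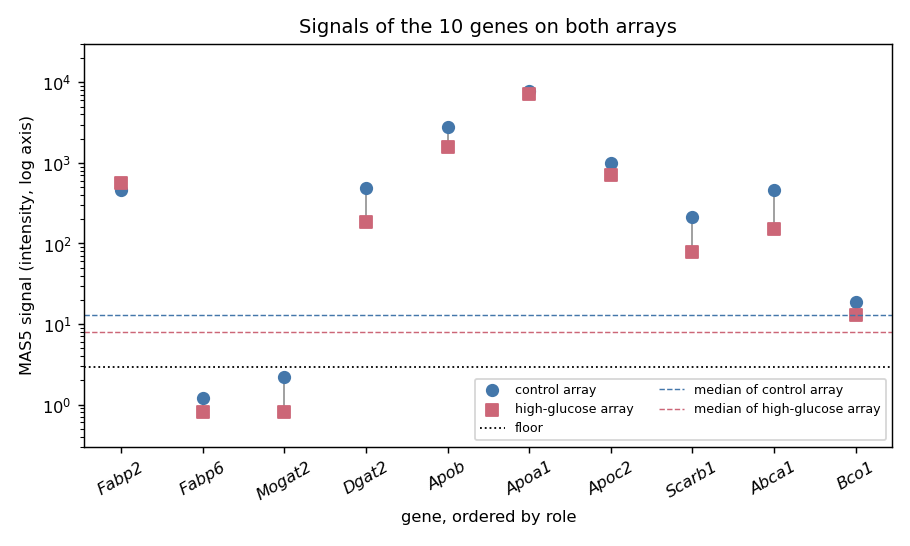
MAS5 signals (intensity, log axis) of the 10 genes on the control array (circles) and the HGD array (squares), with the floor of 2.9 (dotted) and each array's median (dashed). Fabp2 is the gene whose square lies above its circle, both signals of Fabp6 and Mogat2 lie under the floor, and Bco1 lies near the array medians.

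Binding of fatty acids and bile acids inside the cell was represented by a pair of relatives. Fabp2, the intestinal fatty acid binding protein, which carries long-chain fatty acids through the enterocyte, gave a control signal of 455.3 and an HGD signal of 557.9. It was the one member with a brighter signal on the HGD array as deposited, 1.23-fold. Its relative log2 ratio was 1.26, a 2.40-fold higher level, at percentile 97.5 among expressed probe sets. Under 4 other ways of scaling the arrays (median, trimmed mean, quantile and loess) it lay between 1.01 and 1.31. The authors' deposited table lists Fabp2 at an SLR of 0.7, a 1.62-fold higher level.

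Fabp6, which binds bile acids in enterocytes of the ileum, the last stretch of the small intestine, had signals of 1.2 and 0.8 on the control and HGD arrays. Both lay under the floor, at percentiles 14.3 and 13.8 of their arrays, so no ratio is given. In the authors' deposited table it was listed at an SLR of -2.1, a 4.29-fold lower level and rank 33 from the lowest of 1625. Of the 45 probe sets with an SLR of -2 or lower in the authors' deposited table, 15 counted as expressed on the signal arrays and 10 had both signals under the floor, Fabp6 among these.

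Triacylglycerol synthesis was covered by Mogat2, the monoacylglycerol acyltransferase that starts the pathway from absorbed monoacylglycerol, and Dgat2, a diacylglycerol acyltransferase that adds the last acyl chain. They are neighbours on chromosome 7, with no protein-coding gene between them in the RefSeq table of GRCm38.p6. Dgat2 had signals of 485.2 and 183.9 on the control and HGD arrays, 2.64-fold lower as deposited. Relative to the shift its log2 ratio was -0.43, a 1.35-fold lower level, within a range of -0.68 to -0.33 over the scalings. The authors' deposited table gave it an SLR of -1.2. Mogat2 had signals of 2.2 and 0.8, both under the floor, and no ratio is given. Its SLR in the authors' deposited table was -0.3, a value shared by 158 listed probe sets.

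The apolipoproteins were the brightest members. Apob, the structural protein of chylomicrons and of liver lipoproteins, had signals of 2817.8 and 1587.6 on the control and HGD arrays. Apoa1, the main protein of HDL, had signals of 7902.9 and 7173.3. Apoc2, the cofactor that lipoprotein lipase needs to release fatty acids from chylomicrons, had signals of 986 and 705. All 3 were dimmer on the HGD array, by 1.77-fold, 1.10-fold and 1.40-fold as deposited, which for each was less than the shift of 1.96-fold.

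Relative to the shift the log2 ratios were therefore positive, at 0.14 for Apob, 0.83 for Apoa1 and 0.49 for Apoc2. Probe sets with a mean log2 signal of 10 or more mostly lay above the shift. Over the 315 expressed probe sets with a mean log2 signal from 10 to under 12, where Apob lay, the median relative log2 ratio was 0.25 with quartiles of 0.06 and 0.46. Over the 36 at 12 and above, where Apoa1 lay, it was 0.63 with quartiles of 0.48 and 0.75. Over the 917 from 8 to under 10, which hold Apoc2, Fabp2, Dgat2 and Abca1, the median was 0.01 with quartiles of -0.25 and 0.24. After loess centring, which removes such a trend with brightness, Apob stood at -0.14, Apoa1 at 0.33 and Apoc2 at 0.35, and Fabp2 still at 1.21. Under quantile normalization Apob stood at -0.20 and Apoa1 at 0.07. Over the 5 scalings Apob thus ran from -0.20 to 0.19 and changed sign, and Apoa1 ran from 0.07 to 0.88.

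In the authors' deposited table Apob and Apoa1 stood at an SLR of 0.7 like Fabp2. This value is shared by 45 listed probe sets, and 36% of all listed probe sets lie above 0 in SLR and 64% below. Apoc2 stood at -0.3 in the authors' deposited table, on the other side of 0 from its relative log2 ratio of 0.49. The table lists small changes unevenly, with 206 probe sets above -0.4 and below 0 but 1 above 0 and below 0.4, so a member slightly above 0 would seldom have been listed.

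**Figure D2:**
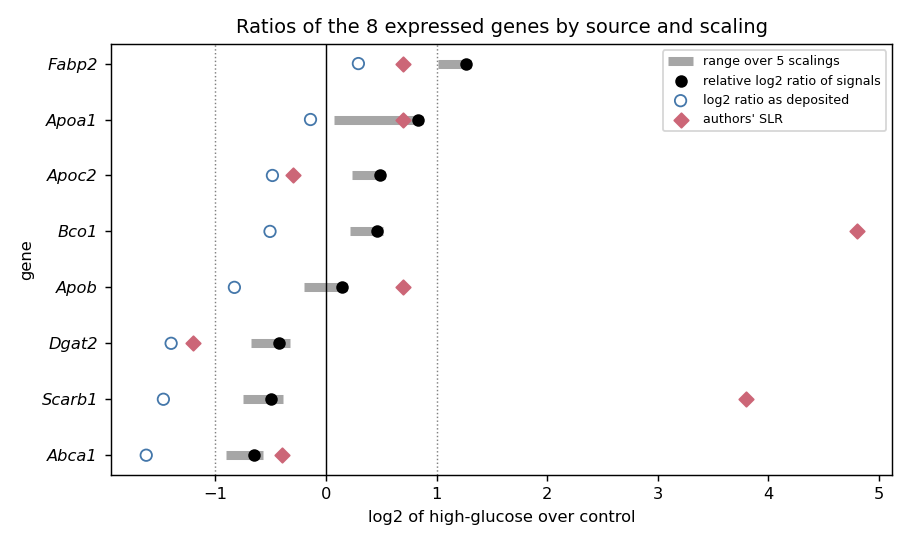
Log2 ratio of high-glucose over control for the 8 expressed genes (rows, x axis in log2 units): relative to the array-wide shift (black), its range over 5 scalings (grey bar), as deposited (open circles) and the SLR of the authors' deposited table (diamonds), with dotted lines at 2-fold. Fabp2 is past the 2-fold line in the relative ratio, Apob's grey bar crosses 0, and the diamonds of Bco1 and Scarb1 stand at 4.8 and 3.8, far from their other values.

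The membrane proteins of cholesterol traffic both lay below the shift. Scarb1, the HDL receptor SR-BI, which in the gut also takes up cholesterol and carotenoids, had signals of 215.2 and 77.7 on the control and HGD arrays, 2.77-fold lower as deposited. Abca1, the transporter that loads cell cholesterol onto apolipoprotein A-I, had signals of 466.6 and 151.3, 3.08-fold lower as deposited. With Dgat2 they were the 3 of 8 members at least 2-fold lower as deposited, beside 47.7% of all expressed probe sets. Relative to the shift, Scarb1 had a log2 ratio of -0.50 and Abca1 of -0.65, 1.41-fold and 1.57-fold lower. Over the scalings Scarb1 ranged from -0.75 to -0.39 and Abca1 from -0.91 to -0.57, so neither changed sign among those 5. Both lay inside the spread of expressed probe sets, at percentiles 17.7 and 12.1.

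The sources went opposite ways for Scarb1. Its SLR in the authors' deposited table was 3.8, a 13.9-fold higher level on the high-glucose diet and rank 51 from the top, whereas its signal was lower on the HGD array on either scale. High SLR values mostly belonged to dim probe sets: of the 104 with an SLR of 3 or more in the authors' deposited table, 12 counted as expressed, and in 4, Scarb1 among them, neither signal was under 50. Its probe set, like that of Apoa1, carries the suffix x, which marks probes that may also match other transcripts. Abca1 stood at -0.4 in the authors' deposited table, on the same side as its signals.

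Bco1, the enzyme that cleaves beta-carotene into retinal, the step by which the gut makes vitamin A from plants, had the highest SLR of the members. The authors' deposited table listed it at 4.8, a 27.9-fold higher level and rank 13 from the top of 1625. On the signal arrays Bco1 was dim, with 18.6 on the control array and 13.1 on the HGD array, 1.42-fold lower as deposited. Relative to the shift its log2 ratio was 0.47, a 1.38-fold higher level, and it lay between 0.21 and 0.52 over the scalings. At that brightness ratios scatter more. Among the dimmest 2829 expressed probe sets, which hold Bco1, the quartiles of the relative log2 ratio were -0.36 and 0.68. Among the brightest 2829, which hold the other 7 members, they were -0.26 and 0.26.

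In mice the transcription factor Isx is known to repress both Scarb1 and Bco1 in the gut. Isx is not named in the files, and its part was not tested. The SLR of Scarb1 and Bco1 in the authors' deposited table, 3.8 and 4.8, exceeded their log2 ratio of the signals as deposited by 5.27 and 5.31. For the other 8 members the SLR of the authors' deposited table differed from that ratio by between -1.52 (Fabp6) and 1.53 (Apob), with Fabp6 and Mogat2 read from signals under the floor. Gaps of this size were not particular to Scarb1 and Bco1. Over the genes of the lipid-handling and marker lists described below, the same difference ran from -5.5 (Cd22) to 7.86 (Pnliprp2). Cd22 had both signals under the floor, and Pnliprp2 its HGD signal. The hepatocyte marker Plg, bright at 3968.3 and 1994 on the control and HGD arrays, had an SLR of 4.2 and a difference of 5.19. Of the 8 expressed members, Scarb1 and Apoc2 had an SLR and a relative log2 ratio of opposite sign. Both sources are labelled as the same comparison, but whether the deposited signals come from the arrays behind the SLR is not stated in the sources used here. A signal set beside an SLR may therefore not be of the same hybridisation, and neither source checks the other.

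**Figure D3:**
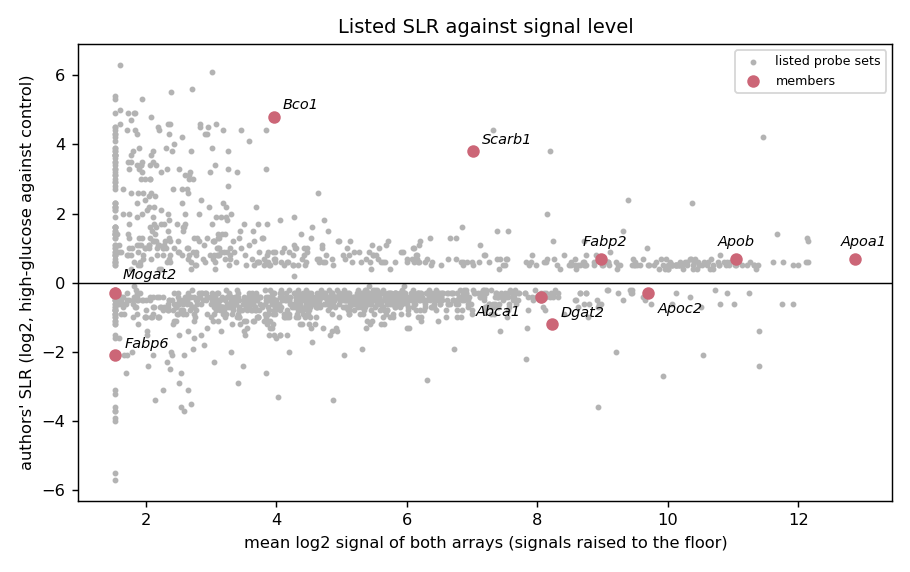
SLR of the authors' deposited table (y axis, log2) against the mean log2 signal of both arrays (x axis, signals raised to the floor) for the 1625 listed probe sets (grey) and the 10 members (red). High SLR values gather at low signals, and Scarb1 is one of few listed probe sets with an SLR above 3 at a moderate signal.

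**Figure D4:**
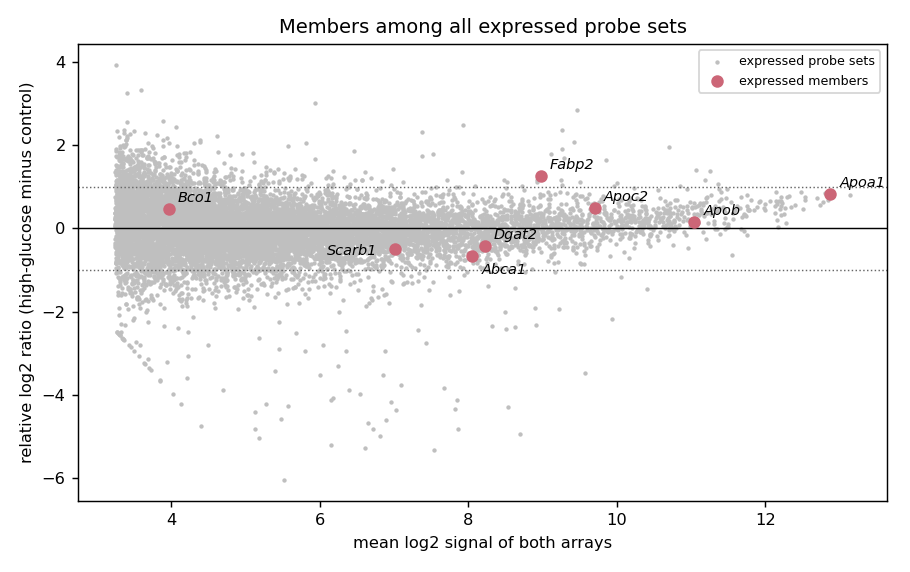
Relative log2 ratio (y axis) against mean log2 signal (x axis) for the 11315 expressed probe sets (grey) and the 8 expressed members (red), with dotted lines at 2-fold. The cloud bends upward at the bright end, where Apob and Apoa1 lie, and Fabp2 stands above most probe sets of similar brightness.

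Other genes of lipid handling were taken from 8 lists by role. Of their 142 genes, 18 are named in the files and 13 counted as expressed, of which 3 lay above the shift and 10 below it, with a median relative log2 ratio of -0.09. None (0) passed 2-fold on the higher side and 2 did on the lower side, beside 4.92% and 4.97% of all expressed probe sets. These 2 were colipase (Clps), the pancreatic cofactor of fat digestion, and the pancreatic lipase relative Pnliprp2. Clps had signals of 261.3 and 4.7 on the control and HGD arrays, a relative log2 ratio of -4.83. Pnliprp2 had signals of 41.1 and 0.5, a relative level at least 7.23-fold lower. All 5 markers of the pancreatic acinar list that are named in the files, Clps among them, passed 2-fold on the lower side, with a median relative log2 ratio of -4.40, and their signals summed to 3974.9 for control and 93.2 for HGD. In the authors' deposited table Clps and Pnliprp2 were listed higher, at an SLR of 1.2 and 1.5. Of the 5 acinar markers, 2 (Clps and Rnase1) lay above 0 there and 3 below.

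The other expressed genes of the lists lay nearer the shift. Acsl1, which activates fatty acids with coenzyme A, had signals of 1982.5 and 1621 and stood at a relative log2 ratio of 0.68, and the acyl-CoA binding protein Dbi stood at -0.06. Apol9b, an apolipoprotein L family gene, stood at 0.39. Pltp, the phospholipid transfer protein of plasma, stood at -0.43 and Abcc2, an export pump for conjugates, at -0.47. Soat2, which esterifies cholesterol for chylomicrons, and the sterol carrier Stard3 stood at -0.02 and -0.17. Bco2, the relative of Bco1 that cuts carotenoids off centre, gave 50.8 and 16.8 and stood at -0.62, which is 1.54-fold lower. The retinal dehydrogenase Aldh1a1 stood at -0.09, the retinoid X receptor gene Rxra at 0.14 and Ppara, a fatty acid sensing nuclear receptor, at -0.03.

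By SLR, 4 of these 18 genes lay above 0 and 14 below in the authors' deposited table, and their median was -0.4, the same as over all 1625 listed probe sets. The 10 members had 5 on each side of 0 and a median SLR of 0.2 in the authors' deposited table. Among the members 2 (Bco1 and Scarb1) were at 1 or above and 2 (Fabp6 and Dgat2) at -1 or below, beside 18.1% and 9.85% of all listed probe sets. Apod, a lipocalin found on HDL, had the highest SLR among the 18 in the authors' deposited table, 2.6. Its signals were 1.6 and 4, too dim to count as expressed. Likewise Lipe, the hormone-sensitive lipase, had signals of 5.4 and 10.7, Lpin3, a phosphatidate phosphatase, 0.5 and 2, and the transcription factor gene Klf5 0.3 and 4.9.

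**Figure D5:**
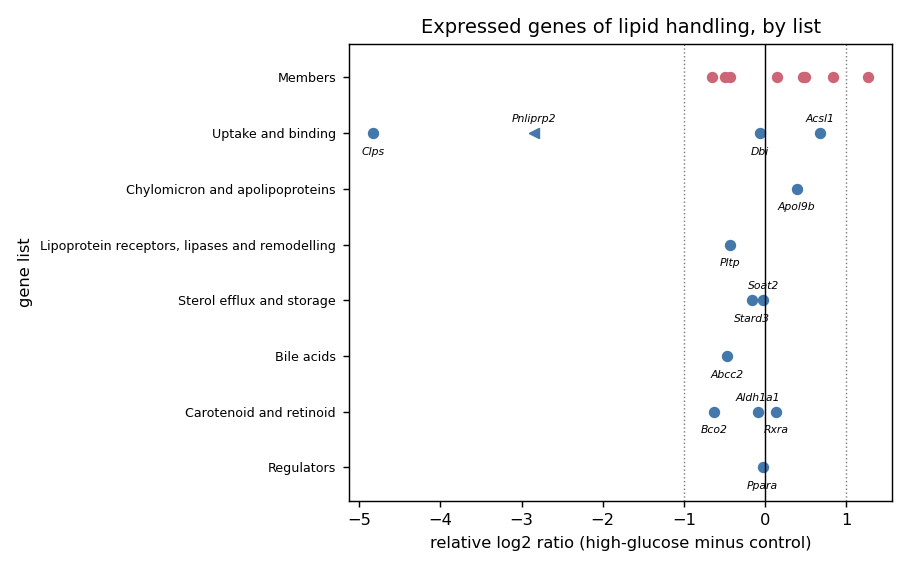
Relative log2 ratio (x axis) of the 8 expressed members (red, top row) and of the 13 expressed genes of the lipid-handling lists (blue, rows by list); the triangle marks a bound from a signal under the floor, and dotted lines mark 2-fold. Clps and Pnliprp2 lie past 2-fold lower, and the other listed genes lie between the dotted lines.

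The labelled tissue was set against markers, since many members are shared between gut and liver. Of 6 enterocyte markers named in the files, 5 counted as expressed, among them the members Fabp2 and Apoa1, with the summed signal of the 6 at 8455.5 on the control array and 7792.4 on the HGD array. Most of that sum was Apoa1, which the liver also makes. Of the enterocyte markers that are not members, the aminopeptidase Anpep gave 64.5 and 31.5, at percentiles 78.8 and 79.3 of the arrays. The fructose transporter Slc2a5 gave 13.3 and 12.2 and the peptidase Ace 14.9 and 16.7, nearer the array medians of 13.1 and 7.9. The sodium-glucose cotransporter Slc5a1, at 4.6 and 0.8, did not count as expressed. Relative to the shift, 4 of the 5 expressed enterocyte markers lay above it, beside 50% of all expressed probe sets. Of the 5, 2 (Fabp2 and Ace) passed 2-fold on the higher side, beside 4.92% of all expressed probe sets. The median relative log2 ratio of the 5 was 0.85, with Ace at 1.14, Slc2a5 at 0.85 and Anpep at -0.06. This median is not separate from the members, since Fabp2 and Apoa1 enter it. Ace and Slc2a5 were about as dim as Bco1, where ratios scatter more. Among the dimmest 2829 expressed probe sets, which hold Bco1, the median relative log2 ratio was 0.17. Over the 36 with a mean log2 signal of 12 and above, which hold Apoa1, it was 0.63. Of the 17 genes on the hepatocyte marker list, 2 are named in the files, and both lay above the 90th percentile of each array. These were Serpina1a with signals of 5068.6 and 4065.3 and Plg with 3968.3 and 1994, and the members Apob, Apoa1, Apoc2, Dgat2 and Abca1 also lay above it on both arrays, as did Fabp2. Of 3 goblet cell markers, 2 counted as expressed. Zg16, a secreted lectin that pancreatic acinar cells also make, gave 514.3 for control and 16.7 for HGD and stood at -3.97 relative to the shift. The trefoil factor Tff3 gave 50.4 and 25.7 and lay at the shift. None (0) of 5 Paneth cell markers and 0 of 7 B cell markers counted as expressed, and 2 of 6 smooth muscle markers did. These counts cover named markers only, and of the 6 adipocyte and 4 macrophage markers 0 were named. The part of other cell types in the members' signals was not tested.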

How the data were processed

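Biotin-labelled cRNA was prepared from 6 ug of total RNA, per the labels' protocols. The authors made the deposited intensity values with MAS5, per the submitters' processing notes. Its version and scaling target are not given there. The authors' deposited table holds the SLR in log2 units, rounded to 0.1, and, as a signed score, the fold change computed from it, which was not used. Genes were named only through that table, in which 42 probe sets have no symbol, with older symbols updated through RefSeq (GRCm38.p6).

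Ratios, the floor (mean of the arrays' 25th percentiles) and the shift were computed in Python 3.11.15 with pandas 2.3.3, and loess with statsmodels 0.14.6. The procedure was tested on simulated data with a constant shift and no trend with brightness, so the test does not cover such a trend. Probe sets counted as expressed at or above the median of mean log2 signal over 22626 probe sets that are not controls. A gene with several listed probe sets was represented by the brightest, and each member has 1 listed. Any further probe sets of a member that the authors' deposited table does not list were not read. No test was made, since each diet has 1 array.

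The alternatives were other scalings, floors, filters, thresholds and probe set choices. Spike-based scaling, the shift over listed probe sets and the median without Bco1 were added after seeing the data. The members and lists were chosen with earlier results of these data known. Named genes were all members and, per list, up to 4 expressed genes past 1.5-fold and up to 3 with the largest SLR, and other list genes are given to complete the lists. A list gene that the rule names is not reported here. The upstream sequences to print and the DR1 search were chosen after values were seen.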

Additional observations from a re-analysis of the deposited data

How the results depend on the processing

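Most values depended on whether the array-wide shift was removed, and less on how it was removed. As deposited, 0 of the 8 expressed members were at least 2-fold higher, 3 were at least 2-fold lower and 1 lay above 0, with a median log2 ratio of -0.67. Measured from the 18 hybridisation spikes, RNAs added just before hybridisation with a median log2 ratio of 0.12, the counts were also 0, 3 and 1, and the median was -0.79. Measured from the 24 poly-A spikes, added to the RNA ahead of labelling where they are used, with a median of -0.93, they were 1, 0 and 5, and the median was 0.27. Under median, trimmed mean, quantile and loess scaling the median lay between -0.06 and 0.35, and Fabp2 was the 1 member past 2-fold in each. The count above 0 was 4 of 8 under median, quantile and loess scaling and 5 of 8 under the trimmed mean. With a threshold of 1.5-fold, 2 members were higher and 1 lower, and with 3-fold, 0 were higher and 0 lower. Other floors, filters and probe set choices gave medians between 0.18 and 0.33. One of these choices, the mean over a gene's listed probe sets, could not move a member, since each has 1. The median without Bco1 was 0.14. Of the lipid-handling lists, 2 had at least 3 expressed genes. In the uptake and binding list, Acsl1 and Dbi stood at 0.68 and -0.06, and the pancreatic Clps and Pnliprp2 far lower, Pnliprp2 as a bound. This list had a median of -1.46 over 4 genes. With Pnliprp2 no longer counted as expressed, its median over the other 3 was -0.011 with the trimmed mean, -0.29 with quantile normalization, -0.061 with a floor at the 10th percentile and -0.028 with a filter at the 75th. With 40 as the percentile of the floor it was -0.82. It was -2.99 without probe sets with suffix x or s, -2.43 as deposited and -2.55 from the hybridisation spikes. The carotenoid and retinoid list, at -0.09 over 3 genes, stood at -1.06 as deposited and -1.18 from the hybridisation spikes. A median or log2 ratio was taken to have moved when it differed by more than 0.49, since there are no replicates. That is the SD, over 18 genes, of the difference between the gene's brightest expressed probe sets. It measures disagreement between probe sets on the same arrays and not the spread between arrays or mice. Counts were judged by their ratio to the main count instead. No paired analysis was possible because each diet has 1 array. Signals near the floor limit Fabp6 and Mogat2, for which no ratio can be given.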
